A study of Corbicula fluminea with 24 samples.

Results

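Muscle transcripts were followed in RNA from the digestive gland of Corbicula fluminea, a bivalve of fresh water known as the Asian clam. Contigs (assembled transcripts) were taken by name where the symbol was MYS, MYSP or ABRA. The names gave 3 contigs of the 58291 in the table, namely MYS.1.2 and MYS.2.2, both named for a muscle myosin heavy chain, and ABRA, named for an actin-binding protein. No contig matched MYSP, the name of paramyosin. All 3 passed the filter on low counts, which left 57593 contigs for testing. The groups were 8 clams caged downstream of a wastewater treatment plant (WWTP), 8 caged downstream of an urban runoff effluent and 8 caged at a reference site, from December to March, with 1 RNA-seq library of digestive gland per clam. Each site had 1 caging, so the p-values rest on differences among clams of a cage, and effects of the site and of its cage cannot be told apart. The labels give no age, sex or size of the clams.

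Myosin heavy chain is the motor of the thick filament, and it pulls on actin filaments that carry tropomyosin. In bivalves, calcium switches contraction by binding to the light chains of this myosin, with the regulatory light chain required. ABRA is known from striated muscle of mammals, where it binds actin. The bivalve digestive gland consists mainly of tubules of digestive epithelium, while muscle lies in the foot, the adductors, the mantle and the walls of the gut and the visceral mass. Levels of these transcripts are described here as a measure of muscle in the tissue taken. In a bulk sample, more muscle cells and more RNA per muscle cell cannot be told apart.

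Library totals ranged from 40.4 to 97.7 M counts, and 4 libraries of each site came from each of 2 sequencing lanes. Digestive transcripts were present in every library: GUN, an endoglucanase that breaks down cellulose, had a lowest value of 2.74 CPM and a median of 494 CPM (read counts as a rate of the library size, which was scaled by TMM). The smallest count of any muscle contig in any library was 110, for which counting error alone is 9.53%, far below the differences between clams described here. No transcript lengths were used here, so levels are compared between clams and not between contigs. Reads may be split between MYS.1.2 and MYS.2.2, and their separate values are uncertain to that extent. WWTP individual 33 and urban runoff individual 53 stood apart in CPM from the other clams of their sites in all 3 contigs. By the same criterion, given below, they did not stand apart on the log2 scale. The log2 fold changes and relations over all clams are given with and without these 2 clams.

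The muscle myosin MYS.1.2 spanned 116-fold over the 24 clams. It stood at 40.4 CPM in the lowest, 282 CPM in the median and 4702 CPM in the highest of the WWTP clams. In urban runoff clams the lowest, median and highest values were 97.0, 267 and 2096 CPM. In reference clams they were 122, 229 and 1681 CPM. The 3 sites overlapped over most of their range, and the lowest and the highest clam of all both came from the WWTP site. Above 1000 CPM were WWTP individuals 33 (4702 CPM) and 41 (1633 CPM), urban runoff individual 53 (2096 CPM), and reference individuals 21 (1681 CPM), 20 (1307 CPM) and 25 (1079 CPM). The next clam below them was WWTP individual 47 with 738 CPM.

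MYS.2.2, the other myosin contig, varied more. Its lowest, median and highest values were 2.81, 14.3 and 3491 CPM in WWTP clams, 4.44, 24.9 and 383 CPM in urban runoff clams, and 3.76, 8.44 and 590 CPM in reference clams. Over all clams the range was 1243-fold, and the standard deviation of log2 CPM was 2.92, larger than that of 99.8% of all contigs tested. The standard deviation was 1.75 for MYS.1.2, larger than in 95.6% of contigs, and 1.05 for ABRA, larger than in 89.6%, while the median contig had 0.41. Every site held clams with MYS.2.2 below 10 CPM and clams above 300 CPM. In WWTP individual 33 the pair of myosin contigs took 0.768% of all counts of the library, against 0.00365% in WWTP individual 48 and a median of 0.0291% over the 24 clams.

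ABRA had the narrowest range of the 3, at 20.1-fold. It stood at 1.65, 4.21 and 33.2 CPM in the lowest, median and highest WWTP clam, at 3.02, 5.64 and 20.3 CPM in urban runoff clams and at 3.91, 7.66 and 16.1 CPM in reference clams. The median was lowest at the WWTP site for this contig, yet the single highest clam was again WWTP individual 33.

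**Figure D1:**
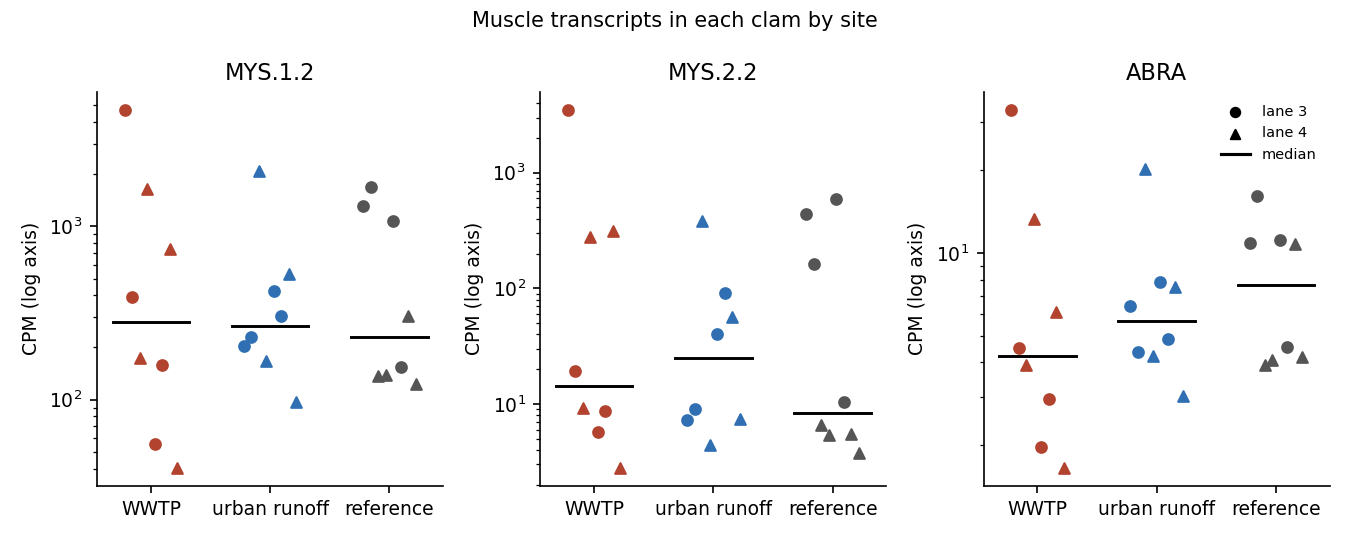
CPM on a log axis of MYS.1.2, MYS.2.2 and ABRA in each of the 24 clams, by site, with circles for lane 3, triangles for lane 4 and a bar at the median of each site. The sites overlap in each panel, WWTP individual 33 is the highest clam in all 3 (4702, 3491 and 33.2 CPM), and the 3 reference clams highest in MYS.1.2 all came from lane 3.

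The comparison of WWTP with reference clams asks whether the amount of muscle transcript in the gland sample differed below a treated wastewater outlet, and it gave no call. The mean of MYS.1.2 was 986 ± 1592 CPM at the WWTP and 615 ± 637 CPM at the reference site (SD, n = 8 each). Its log2 fold change was 0.68 (SE 0.88, 95% interval -1.14 to 2.5, edgeR adjusted p = 0.82 by its quasi-likelihood test and Benjamini-Hochberg), so that the interval runs from 0.453-fold to 5.67-fold. The mean of MYS.2.2 was 516 ± 1209 CPM at the WWTP and 153 ± 232 CPM at the reference site, with a log2 fold change of 1.76 (SE 1.43, 95% interval -1.20 to 4.72, edgeR adjusted p = 0.656). ABRA had means of 8.45 ± 10.7 CPM at the WWTP and 8.20 ± 4.62 CPM at the reference site, a log2 fold change of 0.04 (SE 0.55, 95% interval -1.09 to 1.17, edgeR adjusted p = 0.987). These estimates moved with single clams. Without WWTP individual 33 the log2 fold change was -0.43 for MYS.1.2, -0.74 for MYS.2.2 and -0.74 for ABRA (edgeR adjusted p = 0.853, 0.84 and 0.464), and the mean of MYS.1.2 in the remaining 7 WWTP clams was 456 ± 573 CPM. The sign of MYS.1.2 and of MYS.2.2 turned in this 1 of 24 runs that each left out a clam, and that of ABRA, whose estimate was near 0, in 6 of the 24. On the log2 scale, where that clam weighs less, the mean difference with all clams was -0.11 for MYS.1.2 (two-sided exact permutation test over all splits, p = 0.911), 0.58 for MYS.2.2 (exact p = 0.724) and -0.47 for ABRA (exact p = 0.439).

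Urban runoff clams were compared with reference clams in the same way, for a stormwater outlet, and no muscle contig passed. MYS.1.2 averaged 507 ± 657 CPM in urban runoff clams and 615 ± 637 CPM in reference clams, a log2 fold change of -0.28 (SE 0.88, 95% interval -2.10 to 1.54, edgeR adjusted p = 0.9997). MYS.2.2 averaged 75.1 ± 128 CPM in urban runoff clams and 153 ± 232 CPM in reference clams (-1.02, SE 1.41, 95% interval -3.93 to 1.89, edgeR adjusted p = 0.943). ABRA averaged 7.32 ± 5.51 CPM in urban runoff clams and 8.20 ± 4.62 CPM in reference clams (-0.16, SE 0.55, 95% interval -1.29 to 0.97, edgeR adjusted p = 0.9997). Without urban runoff individual 53 the mean of MYS.1.2 in urban runoff clams was 280 ± 152 CPM, and the log2 fold changes were -1.14 for MYS.1.2, -2.30 for MYS.2.2 and -0.59 for ABRA (edgeR adjusted p = 0.75, 0.674 and 0.815). Without reference individual 21 they were 0.13 for MYS.1.2 and 0.05 for ABRA, a change of sign. By exact permutation of log2 CPM the p-values were 0.836, 0.933 and 0.632 for MYS.1.2, MYS.2.2 and ABRA.

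Between the effluent sites, the log2 fold change of WWTP over urban runoff clams was 0.96 for MYS.1.2 (SE 0.89, 95% interval -0.87 to 2.79, edgeR adjusted p = 0.738), 2.78 for MYS.2.2 (SE 1.49, 95% interval -0.30 to 5.86, edgeR adjusted p = 0.44) and 0.21 for ABRA (SE 0.55, 95% interval -0.92 to 1.34, edgeR adjusted p = 0.929). Without WWTP individual 33 the estimates were -0.15 for MYS.1.2, 0.28 for MYS.2.2 and -0.57 for ABRA (edgeR adjusted p = 0.963, 0.956 and 0.649). Without urban runoff individual 53 they were 1.82, 4.05 and 0.63 (edgeR adjusted p = 0.406, 0.268 and 0.729). Over all 24 clams, site held 0.144% of the variance of log2 CPM in MYS.1.2, 1.11% in MYS.2.2 and 3.57% in ABRA, against a median of 8.88% over all contigs.

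**Figure D2:**
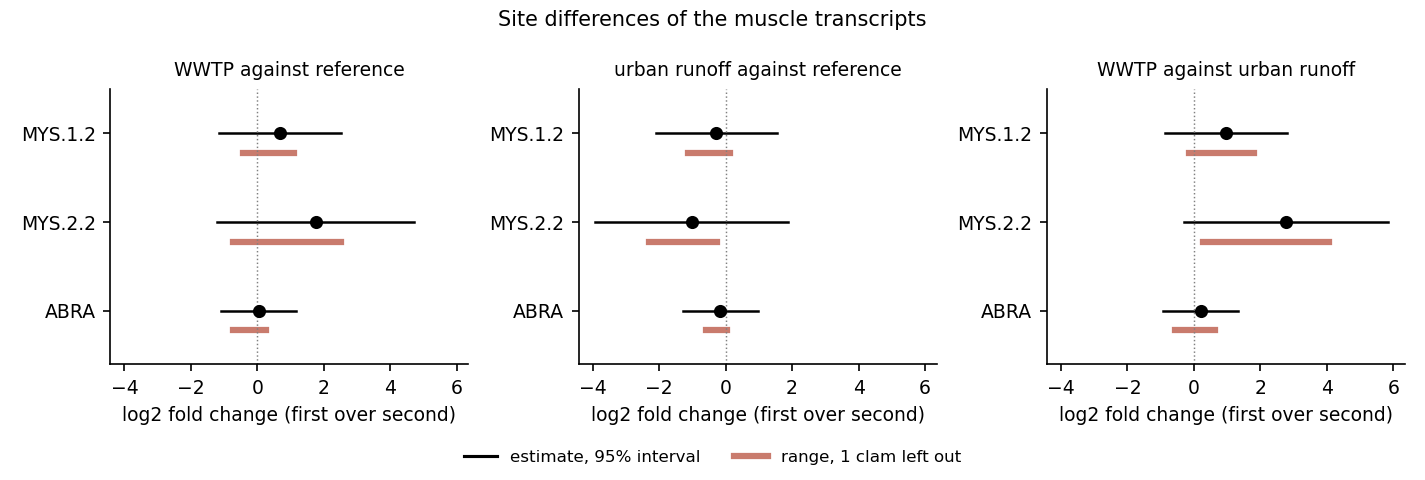
Log2 fold changes of the 3 muscle contigs for each pair of sites, first site over second, as points with 95% intervals from the edgeR fit, and below each a thick bar for the range of the estimate when 1 clam at a time is left out. Every interval spans 0, and the bars show that single clams move the estimates, for MYS.2.2 in WWTP against urban runoff clams from 0.28 to 4.05.

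Counted over the comparisons, 0 of the 3 muscle contigs passed in edgeR or in DESeq2 in any of them. None had an unadjusted p under 0.05 in edgeR, and 1 had in DESeq2, in WWTP against urban runoff clams, where 8328 of all contigs had one. Of all 57593 contigs, 8376, 5732 and 7752 had one in the edgeR fits, in the order of the comparisons above. In the same fits 846 of 57593 contigs passed in WWTP against reference clams (1.47%), 67 in urban runoff against reference clams (0.116%) and 609 in WWTP against urban runoff clams (1.06%). With so few members these shares say little about 3 contigs. Of the 846 contigs 584 were higher and 262 lower in WWTP clams, of the 67 contigs 27 were higher and 40 lower in urban runoff clams, and of the 609 contigs 443 were higher and 166 lower in WWTP clams. Scaling by library totals alone called 38 higher and 127 lower, then 0 and 0, then 37 higher and 504 lower, and it shifted the median over all tested contigs to a log2 fold change of -0.16, 0.04 and -0.20.

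Within a sequencing lane, with 4 clams a site, no muscle contig passed either. Over all contigs, 0, 0 and 0 passed in lane 3 and 1, 0 and 0 in lane 4, in the order of the comparisons above. The lack of calls within a lane therefore says little about the muscle contigs. In lane 3 the log2 fold changes of MYS.1.2 were 0.32 for WWTP over reference, -1.84 for urban runoff over reference and 2.16 for WWTP over urban runoff clams (edgeR adjusted p = 0.93, 0.542 and 0.715). In lane 4 they were 1.89, 2.07 and -0.18 (edgeR adjusted p = 0.6, 0.526 and 0.977). For MYS.2.2 they were 1.55, -2.99 and 4.54 in lane 3 and 4.83, 4.44 and 0.38 in lane 4, and for ABRA -0.01, -0.84 and 0.84 in lane 3 and 0.12, 0.63 and -0.51 in lane 4. Lanes were farthest apart at the reference site, whose median MYS.1.2 was 1193 CPM in the 4 lane 3 clams and 137 CPM in the 4 lane 4 clams, while the medians in lanes 3 and 4 were 274 and 456 CPM at the WWTP site and 267 and 349 CPM at the runoff site. Lane itself, as a term beside site, gave no call for the muscle contigs (lane 4 over lane 3, MYS.1.2 log2 fold change -0.81, SE 0.82, edgeR adjusted p = 0.9999). Of all contigs tested, 1 passed for lane. Whether lane has a part in the reference values was not tested further.

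The 3 contigs varied together over clams. Pearson's r of log2 CPM was 0.948 between MYS.1.2 and ABRA (Spearman's rho 0.923) and 0.929 between MYS.1.2 and MYS.2.2 (rho 0.879). Between MYS.2.2 and ABRA it was 0.822 (rho 0.762). Each r had a permutation p of 1e-05, the smallest that 100000 permutations can give, and an adjusted p of 4e-05 over 12 relations. The permutation p of the rho values was 1e-05, 1e-05 and 3e-05. Without the 2 clams farthest from the median of the first contig, r was 0.922, 0.896 and 0.75. For both relations of MYS.1.2 these clams were WWTP individual 33 and urban runoff individual 53, and without them r between MYS.2.2 and ABRA was 0.728. By r the relation between MYS.1.2 and ABRA was found within each site and each lane. Within sites r was 0.98 in WWTP, 0.961 in urban runoff and 0.929 in reference clams (n = 8 each, exact permutation over all pairings, adjusted p = 0.000298, 0.0119 and 0.00446). Within lanes 3 and 4 it was 0.963 and 0.933. For MYS.1.2 and MYS.2.2 the values were 0.961, 0.896 and 0.928 within sites and 0.929 and 0.925 within lanes. MYS.2.2 and ABRA gave 0.956, 0.799 and 0.752 within sites and 0.883 and 0.745 within lanes, and in reference clams this relation did not pass (exact permutation, adjusted p = 0.11). By rho, MYS.1.2 with ABRA missed in urban runoff clams (0.905, exact permutation, adjusted p = 0.0548). MYS.1.2 with MYS.2.2 missed by rho in urban runoff and reference clams (exact permutation, adjusted p = 0.0643 and 0.11). MYS.2.2 with ABRA missed by rho in urban runoff clams, reference clams and lane 4 (permutation, adjusted p = 0.166, 0.115 and 0.0944).

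The order of clams was nearly shared as well. The 6 clams highest in MYS.1.2 were also the 6 highest in ABRA, and 5 of them were among the 6 highest in MYS.2.2. They comprised 2 WWTP, 1 urban runoff and 3 reference clams. In proportion, the contigs did not move 1 to 1. Counts of MYS.2.2 per count of MYS.1.2 ranged from 0.018 in reference individual 30 to 0.742 in WWTP individual 33, a 41.3-fold range with a median of 0.0726. Counts of MYS.1.2 per count of ABRA ranged from 24.5 in WWTP individual 48 to 141 in WWTP individual 33, a 5.78-fold range. The slope of log2 CPM on that of MYS.1.2 was 1.55 for MYS.2.2 and 0.57 for ABRA.

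**Figure D3:**
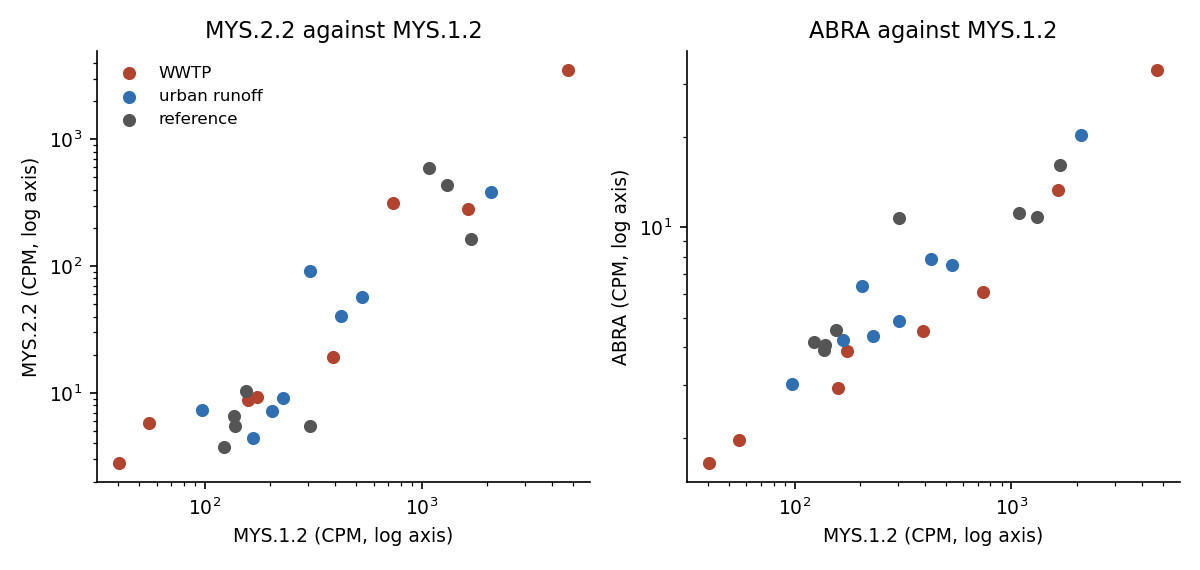
MYS.2.2 (left) and ABRA (right) against MYS.1.2 in each clam, in CPM on log axes, coloured by site. The points of all 3 sites lie along 1 rising band in each panel (r 0.929 and 0.948), and MYS.2.2 stays below about 10 CPM in most clams with under 250 CPM of MYS.1.2 while it spreads from 5.46 CPM upward above that level.

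Some other contractile transcripts followed the myosin contigs, and others did not. Among contigs with a gene symbol and a mean of at least 2 CPM, the 12 with the highest r to MYS.1.2 over the 24 clams were OCDH (0.979), TPM.1.5 (0.975), MLR.3.5 (0.975), TPM.4.5 (0.973), MLR.1.5 (0.968), MLR.5.5 (0.965), MLR.2.5 (0.965), TPM.2.5 (0.957), TPM.5.5 (0.949), ABRA, TPM.3.5 (0.937) and MYS.2.2. MLR names the myosin regulatory light chain and TPM tropomyosin. OCDH is octopine dehydrogenase, which ends anaerobic glycolysis in mollusc muscle by joining pyruvate to arginine. MLR.3.5 ranged from 13.4 to 621 CPM, TPM.1.5 from 42.2 to 1846 CPM and OCDH from 1.04 to 62.2 CPM. All 3 were highest in WWTP individual 33, and their medians were 46.9, 45.7 and 66.1 CPM for MLR.3.5 and 181, 162 and 232 CPM for TPM.1.5 in WWTP, urban runoff and reference clams. For ABRA the closest symbols were MLR.5.5 (0.968), MLR.1.5 (0.965), TPM.4.5 (0.965), TPM.1.5 (0.963), MLR.2.5 (0.962) and MLR.3.5 (0.959), with TPM.5.5, MYS.1.2, TPM.2.5, OCDH, TPM.3.5 and CYP6 (0.915) after them. These correlations describe the 24 libraries, which share their scaling, and many contigs vary together in them.

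Of a list of 20 contigs whose names matched contractile genes, 4 were names of other genes, such as the methyltransferase tpmt. Among the remaining 16, 10 had an r above 0.9 with MYS.1.2, namely 4 of 5 MLR contigs, all 5 TPM contigs and MYLK (0.922), the kinase of the regulatory light chain. Contigs that share a name may not be separate genes. The count and the median of the list therefore rest mainly on the names MLR and TPM. The median r of the list was 0.943, against 0.042 over all contigs. MLR.4.5 had 0.809. The others did not follow. MYL9, named for a regulatory light chain of vertebrate smooth muscle and non-muscle cells, stayed between 115 and 168 CPM in all clams (r 0.46). KARG.1.2 and KARG.2.2, named for arginine kinase, the phosphagen kinase of invertebrate muscle, had r of 0.144 and -0.071. TNNC2, named for troponin C, spanned 0.149 to 10.7 CPM (r 0.154), and UNC22, named for the giant protein twitchin, reached 1.69 CPM at most (r -0.055). The KARG contigs, TNNC2, UNC22 and MLR.4.5 were named after their values were seen. No contig of the list passed in any site comparison, in edgeR or in DESeq2. At an unadjusted p under 0.05 in edgeR there was 1, in urban runoff against reference clams, where 5732 of all 57593 contigs had one. Its median log2 fold change was 0.41 for WWTP over reference, -0.10 for urban runoff over reference and 0.47 for WWTP over urban runoff clams, against 0.01, 0.01 and -0.01 over all contigs. Summed over the list, the level ranged from 469 to 6241 CPM in WWTP clams, from 790 to 3011 CPM in urban runoff clams and from 649 to 2274 CPM in reference clams.

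Contigs that followed MYS.1.2 with an r above 0.9 differed in how widely they varied. TPM.1.5 spanned 43.8-fold over the clams and TPM.3.5 4.82-fold, with r of 0.975 and 0.937. The slope of log2 CPM on MYS.1.2 was 0.83 for OCDH, 0.71 for MLR.3.5, 0.70 for TPM.1.5, 0.47 for MYLK and 0.28 for TPM.3.5. TPM.3.5 did not go below 74.3 CPM in any clam. Of the symbols ranked highest for MYS.1.2, MYS.2.2 alone had a slope above 1.

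Of the other 57592 contigs, 130 had an r above 0.9 with MYS.1.2 (0.226%), 32 with MYS.2.2 and 179 with ABRA, and 15, 2 and 17 of these carried a symbol. An r below -0.9 was found for 0, 0 and 1 contigs. Leaving the 3 muscle contigs out of each set, the sets of MYS.1.2 and ABRA shared 114 contigs, 89.1% of the first and 64.0% of the second. The sets of MYS.1.2 and MYS.2.2 shared 30, 23.4% of the first and 96.8% of the second. None of the contigs in any of these sets passed in a site comparison, in edgeR or in DESeq2, and none had an unadjusted p under 0.05 in edgeR. The sets were picked over the same clams, by a high r with contigs in which site held at most 3.57% of the variance. That choice leaves little room for a site difference, so the absence of calls is no separate result. Of contigs without a symbol the closest were LOC105335759.2.4 for MYS.1.2 (r 0.988), LOC105334536.1.9 for MYS.2.2 (r 0.984) and LOC101854280 for ABRA (r 0.974).

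A list of actins and other parts of the cytoskeleton had lower r. Of its 10 contigs none had an r above 0.9 with MYS.1.2, and the median was 0.175. ACTC.2.2, named for an actin whose type the symbol does not settle, ranged from 2777 to 6798 CPM (r 0.742) and was highest in WWTP individual 33. ACTM, an actin named for muscle, stood on this list and not among the 16 contractile contigs. It ranged from 150 to 536 CPM and had an r of 0.075. PROF.2.2, profilin, which binds actin monomers, had 0.683. ARP2, of the complex that branches actin filaments, had -0.665, and ARPC3_bis, of the same complex, was among the 6 lowest symbols for ABRA (-0.818). In this list 0 contigs passed in a site comparison, in edgeR or in DESeq2. In the 3 comparisons 2, 0 and 2 of the 10 contigs had an unadjusted p under 0.05 in edgeR, against 8376, 5732 and 7752 of all 57593 contigs.

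**Figure D4:**
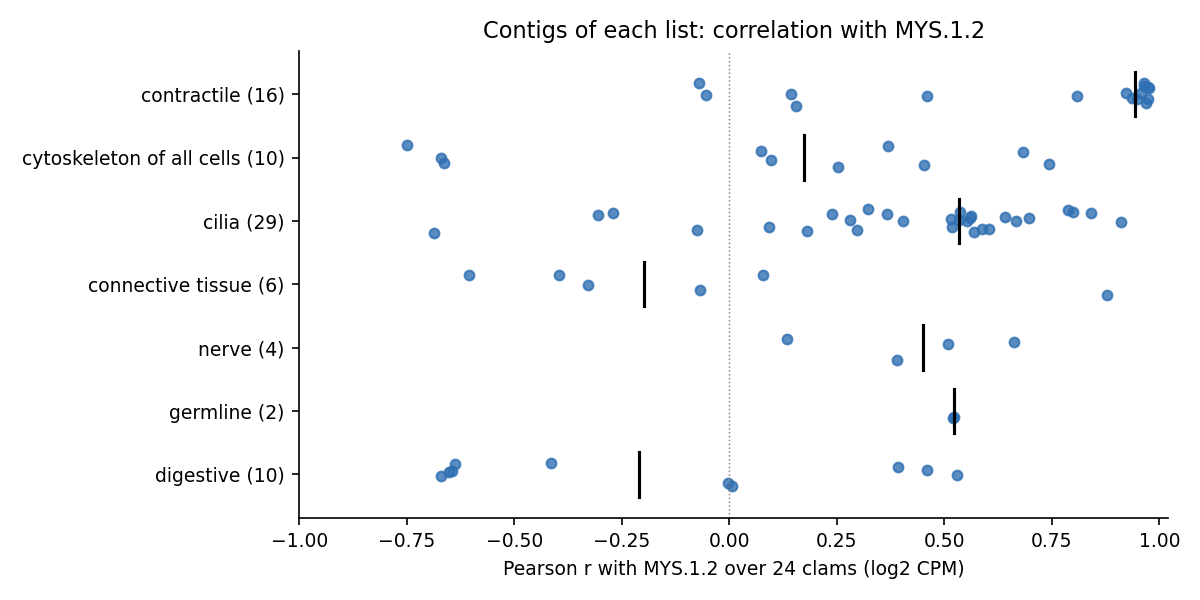
Pearson r with MYS.1.2 over the 24 clams for each contig of the lists, on log2 CPM, with the number of contigs in brackets and a bar at the median of each list. Of the 16 contractile contigs 10 lie above 0.9, all of them named MLR, TPM or MYLK, while the digestive contigs spread from -0.671 (LIPA) to 0.53 (ctrl.L).

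Lists of cilia and tubulin, connective tissue and nerve names were also set beside the muscle contigs. In the list of cilia and tubulin 1 of 29 contigs had an r above 0.9 with MYS.1.2. This was TBA2, an alpha-tubulin (0.91), named after its values were seen, and the list had a median r of 0.535. Its most abundant members, TBB.9.11 (0.605), TBA3.1.3 (0.57), TBB.2.11 (0.667) and TBA3.2.3 (0.641), varied at most 5.56-fold over the clams. The contigs not named for a tubulin were cfap44 (0.28), cfap65 (0.093) and DYHC (-0.075), named after their values were seen. The median of the list therefore rests mainly on tubulins. Of the 29 contigs 4 had an r below 0. Among them was TBA1.6.7 (-0.686), with a mean of 491 CPM and a 19.2-fold range, named after its values were seen. Summed, this list ranged from 4875 to 12516 CPM in WWTP, 4472 to 9642 CPM in urban runoff and 5626 to 12440 CPM in reference clams. Of the connective tissue names, CO4A1, collagen IV of the basement membrane, followed MYS.1.2 (r 0.879) and ABRA (0.909) and ranged from 8.94 to 86.6 CPM. FINC.2.2 (-0.328) and fn1 (-0.067), named for fibronectin, and CO8A1 (-0.606), a collagen listed at 0 in 1 or more clams, did not. Among 4 synaptotagmins, the vesicle proteins on the nerve list, r was 0.661 for Syt7, 0.508 for Syt47, 0.391 for Syt18 and 0.133 for Sytalpha, and all had a mean below 6 CPM. In these lists no contig passed in a site comparison in edgeR. In DESeq2 1 contig of the cilia list passed in WWTP against reference clams and 1 in WWTP against urban runoff clams. Over all contigs DESeq2 called 2328 and 1968 in these comparisons, so 1 of 29 says little about the list. At an unadjusted p under 0.05 in edgeR, the cilia list had 1, 0 and 1 contigs in the 3 comparisons, the nerve list 0, 0 and 0, and the connective tissue list 2, 0 and 1. Over all 57593 contigs the numbers were 8376, 5732 and 7752.

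Digestive transcripts ran against the muscle contigs in part. The mean log2 CPM of 10 digestive contigs had an r of -0.615 with MYS.1.2 (rho -0.616, permutation p = 0.00135 and 0.00161, adjusted p = 0.00324 over 12 relations), -0.532 with MYS.2.2 (rho -0.528, p = 0.00725 and 0.00862, adjusted p = 0.0119) and -0.668 with ABRA (rho -0.679, p = 0.00041 and 0.00031, adjusted p = 0.00123). Without the 2 clams farthest from the median, r was -0.61, -0.549 and -0.66, and without WWTP individual 33 and urban runoff individual 53 it was -0.562, -0.471 and -0.637 (permutation, adjusted p = 0.015, 0.0453 and 0.00378). That endoglucanase and MYS.1.2 run opposite ways was known from earlier results of these data. Endoglucanase is on the digestive list, so the p-values of these relations describe the data and are no fresh test. Within sites r with MYS.1.2 was -0.447 in WWTP (exact permutation, adjusted p = 0.359), -0.794 in urban runoff (0.0289) and -0.874 in reference clams (0.0118), and it was -0.595 and -0.613 in lanes 3 and 4 (permutation, adjusted p = 0.0996 and 0.0562). By r the relation therefore did not pass in WWTP clams or in either lane alone. By rho it passed in lane 3 (-0.685, permutation, adjusted p = 0.04) and in reference clams (-0.905, exact permutation, adjusted p = 0.0274), and not in lane 4 (-0.517), WWTP clams (-0.31) or urban runoff clams (-0.762, exact permutation, adjusted p = 0.0882). The digestive list had a median r of -0.209 with MYS.1.2, and 6 of its 10 contigs were below 0. GUN (-0.637), the amylase Amy.1.2 (-0.645), MANA (-0.651), named for a mannan-cleaving enzyme, and the lipase LIPA (-0.671), named after its values were seen, were the lowest of the list, while the chymotrypsin-like ctrl.L had 0.53. Positive values were also found for TRYM (0.46) and Amy.2.2 (0.392), and CTRB (-0.0029) and MANBL (0.0071) were near 0, all 4 named after their values were seen. No contig of the digestive or the germline list passed in a site comparison, in edgeR or in DESeq2. At an unadjusted p under 0.05 in edgeR there was 1 digestive contig, in WWTP against reference clams, where 8376 of all 57593 contigs had one.

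Clam by clam, high MYS.1.2 and low GUN did not always go together. Among the 6 clams highest in MYS.1.2, GUN was 7.72 CPM in WWTP individual 41, 6.58 CPM in urban runoff individual 53, and 14.9 and 8.01 CPM in reference individuals 21 and 20. In the other 2 it was 145 CPM in WWTP individual 33 and 762 CPM in reference individual 25. Reference individual 25 thus held 1079 CPM of MYS.1.2 and 590 CPM of MYS.2.2 together with endoglucanase above the median of 494 CPM. Urban runoff individual 56, the clam lowest in GUN at 2.74 CPM, had 426 CPM of MYS.1.2. The mean log2 CPM of the digestive list ran from 2.08 to 4.59 over the clams. It was 2.89 in WWTP individual 33 and 3.43 in reference individual 25. In WWTP individual 41, urban runoff individual 53 and reference individuals 21 and 20 it lay between 2.17 and 2.48. By this mean reference individual 25 was below reference individuals 22, 29, 23 and 31 (3.63 to 4.43) and above reference individual 30 (3.25). These clams were named after their values were seen.

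Vg.1.2 and Vg.2.2 are named for vitellogenin, the egg yolk precursor and a germline marker here. Vg.1.2 had an r of 0.523 with MYS.1.2 (rho 0.577, permutation p = 0.00795 and 0.00348, adjusted p = 0.0119 and 0.00597). With MYS.2.2 r was 0.371 (rho 0.51, permutation p = 0.0712 and 0.0113, adjusted p = 0.0949 and 0.0151). With ABRA r was 0.565 (rho 0.645, permutation p = 0.00408 and 0.00091, adjusted p = 0.00816 and 0.00218). Leaving out the 2 clams farthest from the median in Vg.1.2 gave r of 0.619, 0.593 and 0.635. Without WWTP individual 33 and urban runoff individual 53, r with MYS.1.2 was 0.45 (permutation, adjusted p = 0.0516), which missed the threshold. With MYS.2.2 it was 0.245 (permutation, adjusted p = 0.331) and with ABRA 0.509 (adjusted p = 0.0292). The rho values were 0.529, 0.447 and 0.607 (permutation, adjusted p = 0.0211, 0.051 and 0.00804), so MYS.1.2 passed by rho and not by r. Within WWTP clams r with MYS.1.2 was 0.82 (rho 0.976, exact permutation, adjusted p of r = 0.0164). It was 0.27 within urban runoff (0.615) and 0.425 within reference clams (0.326). In lanes 3 and 4 it was 0.41 and 0.7 (permutation, adjusted p = 0.282 and 0.0209). By rho the relation in lane 4 missed (0.678, permutation, adjusted p = 0.0556). Whether the relation with MYS.1.2 differed between sites was not tested. Library total did not relate to the muscle contigs past the threshold (r -0.363 with MYS.1.2, rho -0.419, permutation p = 0.0813 and 0.0421, adjusted p = 0.0976 and 0.0506).

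**Figure D5:**
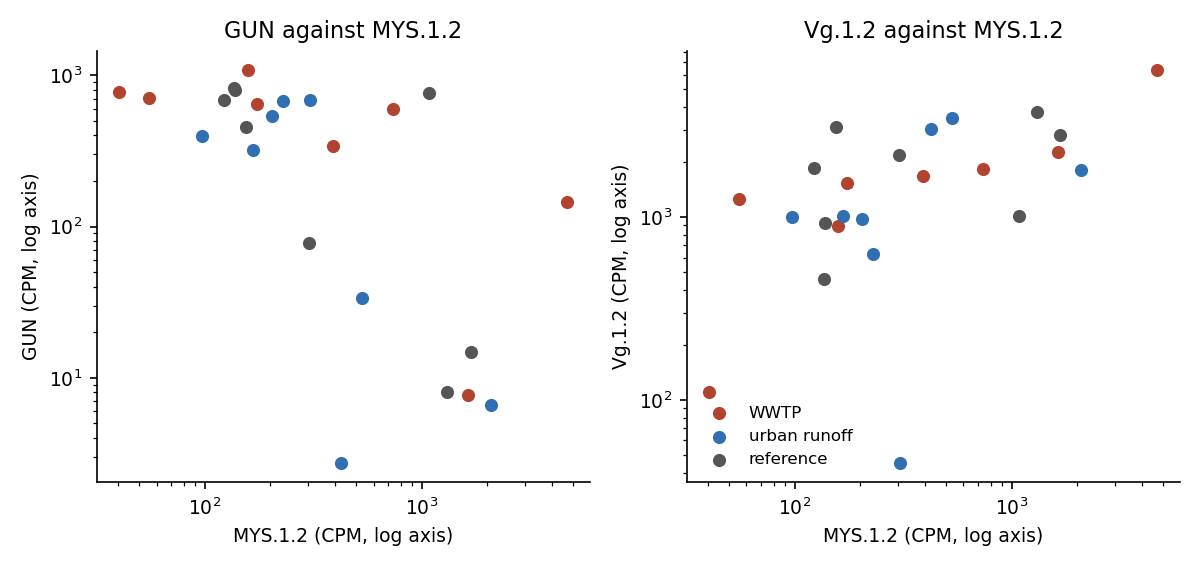
GUN (left) and Vg.1.2 (right) against MYS.1.2 in each clam, in CPM on log axes, coloured by site. Clams above 1000 CPM of MYS.1.2 include 4 with GUN below 15 CPM, WWTP individual 33 with 145 CPM and reference individual 25 with 762 CPM, and Vg.1.2 is highest in WWTP individual 33 (6326 CPM).

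At the other end of the ranking by r, the 6 symbols lowest against MYS.1.2 were CDR1 (-0.8), TRIM2 (-0.786), a ubiquitin ligase, MGT4C (-0.785), an enzyme of N-glycan branching, PCSK4.14.15 (-0.781), a proprotein convertase, CILP1.2.2 (-0.778), named for a protein of the cartilage matrix, and ABCA2 (-0.775), a lipid transporter. CILP1.2.2 ranged from 32.3 to 280 CPM over the clams. Against ABRA the lowest were PCSK4.14.15 (-0.823), PRRT1 (-0.821), the carboxylesterase CES2.1.2.2 (-0.819), ARPC3_bis (-0.818), the ubiquitin protease UBP4 (-0.815) and TRIM2 (-0.813).

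To see how far the site comparisons of all contigs move with the amount of muscle transcript, log2 CPM of MYS.1.2 was added to the fit as a term, a choice made after seeing the data. With it 1704 contigs passed in WWTP against reference clams, 270 in urban runoff against reference clams and 1290 in WWTP against urban runoff clams. These included 845 of the 846, all 67 and 607 of the 609 contigs that passed without the term, which is 49.6%, 24.8% and 47.1% of those that passed with it. No other contig was used as a term, and MYS.1.2 also related to the digestive mean (r -0.615) and to Vg.1.2 (r 0.523). Whether another contig that varies among clams would change the counts alike was not tested.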

How the data were processed

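Libraries were made from total RNA of the digestive gland (Promega SV kit, TruSeq RNA v2), per the labels' protocols. The deposited table holds raw read counts per contig, 1 column per library. The submitters' processing notes list BWA 0.7.12 and SAMtools 1.1. How contigs were assembled, counted and named is not given in the labels. Contigs with low counts were removed with filterByExpr by site (minimum count 10, 698 removed), libraries were scaled by TMM, and edgeR 4.0.16 in R 4.3.3 fitted all 24 in 1 robust quasi-likelihood model of site alone. P-values were adjusted by Benjamini-Hochberg over all contigs within each comparison (threshold 0.05). Each log2 fold change puts the site named first over the other, and log2 CPM used a prior count of 2. The fit was also run on simulated counts, drawn for each contig on its own. These lack the variation among clams that the muscle contigs share, so that run says little about them.

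The muscle contigs and lists were chosen with earlier results of these data known. Apart from contigs said to be chosen later, contigs were named by a rule: all muscle contigs, the 12 symbols with the highest and the 6 with the lowest r to MYS.1.2 and to ABRA (mean of at least 2 CPM), and up to 4 of the most abundant members per list. A list of muscle-associated names (such as LIM proteins and the calcium pump) matched 0 contigs, and names of other genes were removed from the lists, and 1 further list is not reported here. Relations were tested with 100000 permutations, or all pairings within a site. Alternatives were other scalings, no filter, DESeq2 1.42.0, lane as a term, single lanes, exact permutation and each library left out in turn. Figures were drawn with python 3.11.15. No contig sequences were used here.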

Additional observations from a re-analysis of the deposited data

Results flagged for a closer look

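In 6 of 9 groups (3 contigs at 3 sites) the gap between the highest clam and the next exceeded Dixon's 95% critical value of 0.526 of the range for 8 values. Chance flags about 1 group in 20 where values are normally distributed, and the rate for CPM as skewed as these was not measured. The 3 contigs vary together, so these are not 6 separate results. WWTP individual 33 stood apart with 4702 CPM of MYS.1.2 (next 1633 CPM), 3491 CPM of MYS.2.2 (next 312 CPM) and 33.2 CPM of ABRA (next 13.3 CPM). Urban runoff individual 53 stood apart with 2096 CPM of MYS.1.2 (next 531 CPM), 383 CPM of MYS.2.2 (next 91.9 CPM) and 20.3 CPM of ABRA (next 7.87 CPM). On the log2 scale 0 of the 9 groups exceeded the critical value. The reference groups did not exceed it on either scale.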

How the results depend on the processing

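No muscle contig passed under any alternative run. Estimates did change sign. Library totals alone gave ABRA -0.11 (WWTP over reference). Lane as a term gave 0.19 for MYS.1.2 and 0.94 for MYS.2.2 (urban runoff over reference). Lane 3 alone gave ABRA -0.0063 (WWTP over reference). Lane 4 alone gave 0.63, 2.07 and 4.44 for ABRA, MYS.1.2 and MYS.2.2 (urban runoff over reference) and -0.51 and -0.18 for ABRA and MYS.1.2 (WWTP over urban runoff). Mean log2 CPM gave -0.47 and -0.11 for ABRA and MYS.1.2 (WWTP over reference) and -0.27 for ABRA (WWTP over urban runoff). The cause was not tested. With 1 library left out, MYS.1.2 ranged from -0.43 to 1.09, -1.14 to 0.13 and -0.15 to 1.82, MYS.2.2 from -0.74 to 2.52, -2.30 to -0.26 and 0.28 to 4.05, and ABRA from -0.74 to 0.26, -0.59 to 0.049 and -0.57 to 0.63, for WWTP over reference, urban runoff over reference and WWTP over urban runoff. In that order, edgeR counts over all contigs were 846, 67 and 609. They were 206 to 1342, 0 to 198 and 112 to 1010 with 1 library left out, 165, 0 and 541 with library totals alone, 2328, 825 and 1968 in DESeq2, 0, 0 and 0 in lane 3, 1, 0 and 0 in lane 4 (fewer clams), and 1704, 270 and 1290 with MYS.1.2 as a term. Where edgeR called 0, unadjusted p under 0.05 were 4181 (totals, urban runoff over reference), 5026 (the same pair without urban runoff individual 50), 3975, 6708 and 4411 (lane 3), and 6247 and 4362 (lane 4). Of 12 relations 8 passed, by r, against 3 in lane 3, 6 in lane 4, 6, 5 and 4 within WWTP, urban runoff and reference clams, and 7 without WWTP individual 33 and urban runoff individual 53, a set chosen after seeing the data, where Vg.1.2 with MYS.1.2 missed. MYS.2.2 with ABRA missed in reference clams (r 0.752), and MYS.2.2 with Vg.1.2 was -0.0229 in urban runoff clams. No paired analysis was possible because the numbering of clams follows accession order and ties none across sites. Depth did not limit the muscle contigs, whose smallest count was 110.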

Other observations

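The 3 contigs without a symbol closest to MYS.2.2 also varied widely, against 1243-fold for MYS.2.2 itself. LOC105334536.1.9 (r 0.984 over the 24 clams) spanned 1197-fold, from 0.0601 to 71.9 CPM, and LOC105334536.6.9 (r 0.982) spanned 1201-fold, from 0.393 to 472 CPM. LOC105334536.9.9 (r 0.946) spanned 726-fold, from 0.571 to 415 CPM. Medians of LOC105334536.6.9 were 2.79, 5.68 and 1.14 CPM in WWTP, urban runoff and reference clams. The slope of log2 CPM on that of MYS.1.2 was 1.44 for LOC105334536.1.9 and 1.67 for LOC105334536.6.9, against 0.97 for LOC105335759.2.4, the contig closest to MYS.1.2. All were chosen after their values were seen, and the table pairs no description with them.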
